A study of Mus musculus with 5 samples.

Results

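The AP-1 and EGR immediate early factors are described here by 10 genes taken as a list: the FOS subunits Fos, Fosb and Fosl2, the JUN subunits Jun, Junb and Jund, the partner Atf3, and the zinc finger genes Egr1, Egr2 and Egr3. All 10 were found among the 17018 genes with a count in any library, and all 10 were among the 12576 genes that passed the filter on low counts. RNA-Seq had been run on 5 samples of macrophages (BMDMs) grown with M-CSF from the marrow of Balb/c mice, which the study describes as female. In all 5, the macrophages shared a culture for 48 hours with 4T1 cells, a mouse mammary carcinoma line, behind a porous membrane. The 4T1 cells were WT for 2 libraries and ADAM17 knock-out for 3 (Adam17-/- below), so the sequenced macrophages did not carry the deletion themselves. ADAM17 is a membrane protease that sheds EGFR ligands and other surface proteins, and the comparison asked how macrophages differ when the neighbouring cancer cells lack it. All 3 Adam17-/- libraries carry the designation 2.8, and whether a difference belongs to the deletion or to something else about that line cannot be told apart. The labels number the replicates but do not say whether they came from separate cultures or animals, so the p-values measure only the spread between these libraries.

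Immediate early genes are transcribed within minutes of a signal, without new protein synthesis, from promoters that serum response factor (SRF) with its ternary complex partners, CREB and ATF proteins, and AP-1 itself can bind. AP-1 is a dimer of basic leucine zipper proteins: JUN proteins pair with each other or with FOS proteins, whereas FOS proteins need a JUN partner, and ATF3 can pair with JUN proteins. EGR proteins bind GC-rich sites through zinc fingers and are held back by the NAB corepressors. In macrophages, these factors respond to growth factors such as M-CSF and to inflammatory signals, and a library taken after 48 hours measures a standing level and not the early pulse.

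Jun, the founding AP-1 subunit, fell in macrophages cocultured with Adam17-/- 4T1 cells, and so did Jund and Fosl2, while Atf3, a stress-induced ATF family member, rose. The other 6 members did not pass the test. The called differences were small, between a 1.24-fold and a 1.39-fold change, and 0 of the 10 members passed a stricter rule, which added an absolute log2 fold change of at least 1 and which 4.22% of all genes passed. The 3 members called lower are to be read against 16.8% of all genes tested that were called lower by the same rule, and the 1 called higher against 14.9% called higher. The Adam17-/- libraries all lay below both WT libraries for 3 members and above them for 1, where the same held for 29.7% and 28.4% of all genes. The median log2 fold change of the 10 members was -0.32, compared with 0.0092 over all genes tested. It was -0.09 without WT replicate 1 and -0.17 with library size only. Calls here are from the quasi-likelihood test of edgeR with Benjamini-Hochberg adjustment over all genes tested, with the threshold set at an adjusted p of 0.05. Levels are CPM, in which each count is scaled by its library's total and TMM factor.

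**Figure D1:**
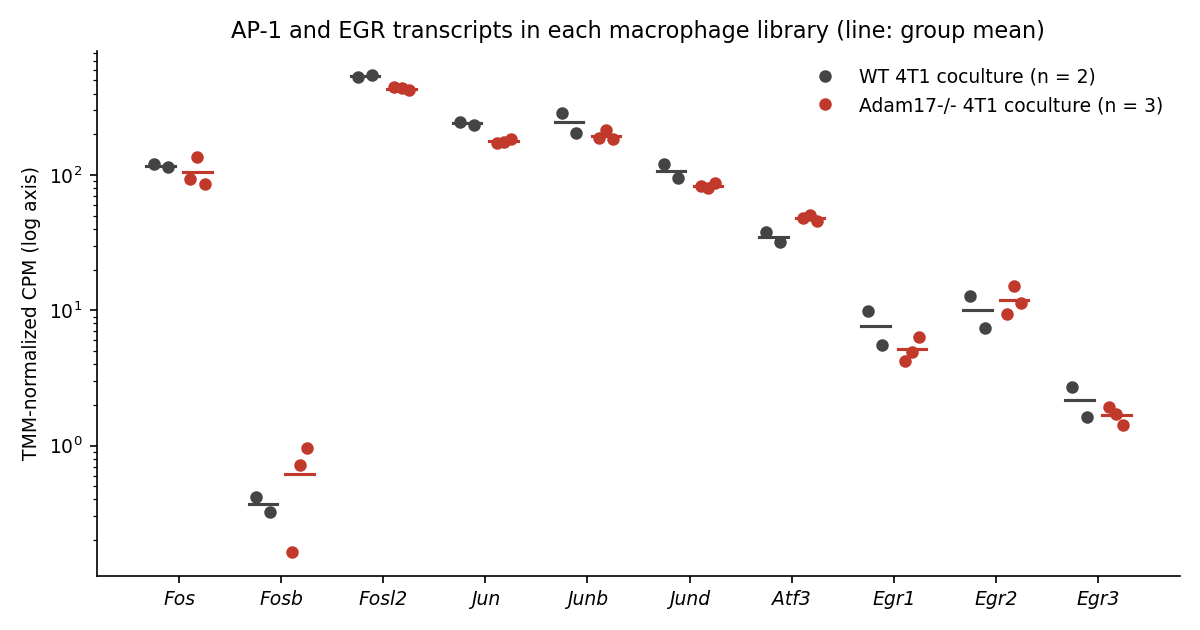
Level of each member (TMM-normalized CPM, log axis) in the 2 WT (grey) and 3 Adam17-/- (red) coculture libraries, 1 point per library, with a line at each group mean. Jun, Jund and Fosl2 lay lower in all 3 Adam17-/- libraries than in both WT libraries and Atf3 lay higher, whereas the groups overlapped for the other 6 members.

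The split of calls depended on the scaling. With TMM factors 46.9% of all calls were higher, and with library size only 73.7% were, since under that scaling the median over all genes was a log2 fold change of 0.16. Under library size only, 1 member was called lower (Jun), where 8.56% of all genes were, and 1 higher (Atf3), where 24.0% were. Relative to the median of all genes, the log2 fold change of Jun was -0.45 with either scaling, that of Fosl2 -0.32, that of Jund -0.38, and that of Atf3 0.46. A change of scaling moves all genes by nearly the same amount, so this match was built into the subtraction and does not test the calls.

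Sequence before a listed start of 4 members is shown because these genes include 2 that were called, Jun and Atf3, and because these stretches hold the motifs for the factors named above. For Jun, Fos and Atf3, the 150 bases before the RefSeq start (build GRCm38.p6) are given 5′ to 3′ on the gene's strand, with the motif in capitals. For Egr2, which has several listed starts, a stretch of 30 bases upstream of 1 of them is given. It does not reach that start: the first letters in capitals begin 72 bases before it. The stretch lies within the span of the gene as annotated from its outermost start. The capitals mark TGACATCA in Jun (chr4:95052223-95052372, minus strand), TGACG in Fos (chr12:85473740-85473889, plus strand), the same letters on the other strand in Atf3 (chr1:191183334-191183483, minus strand), and, in Egr2 (chr10:67537789-67537818, plus strand), a CArG box, the core that SRF binds, followed by TGACG on the other strand.
Jun: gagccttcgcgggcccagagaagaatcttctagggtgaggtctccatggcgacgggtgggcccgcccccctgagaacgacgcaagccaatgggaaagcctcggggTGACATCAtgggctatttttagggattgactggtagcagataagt
Fos: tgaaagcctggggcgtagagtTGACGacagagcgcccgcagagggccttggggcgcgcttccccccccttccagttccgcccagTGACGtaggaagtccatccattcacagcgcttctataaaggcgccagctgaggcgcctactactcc
Atf3: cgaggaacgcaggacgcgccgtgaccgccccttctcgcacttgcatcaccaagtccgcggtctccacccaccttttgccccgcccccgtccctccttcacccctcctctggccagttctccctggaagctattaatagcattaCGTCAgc
Egr2: tcctcagtCCATATATGGgcagcgaCGTCA

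The RefSeq promoter table held windows of 250 bases before to 50 after the start for 8 of the 10 members (12 windows, 5 of them for Egr2) but not for Egr1 and Egr3, which were not searched, and both strands of all 32851 windows were searched. TGACATCA, a variant of the AP-1 site, began 45 bases before the start of Jun and lay in no other member, and 3.62% of all windows held it. The AP-1 site TGACTCA and the full cAMP response element TGACGTCA were in the windows of 0 members, and in 5.20% and 1.79% of all windows. TGACG, the letters that open the cAMP response element, was found in Fos (129 and 66 bases before the start), Atf3 (7 bases before), Fosb (60), Junb (106) and Egr2, but 20.8% of all windows held these letters. A CArG box lay in the windows of 1 member, Egr2, where 4 of 5 windows, some of them overlapping, held 2 distinct boxes, and in 1.63% of all windows. Sites further upstream than these windows were not searched in Fos or any other member. Of the EGR sites, GCGTGGGCG was in 0 members' windows (0.612% of all) and GCGGGGGCG in those of Fosb and Fosl2 (2.91% of all). A match describes these letters only, and a factor's binding was not measured here.

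Among the JUN subunits, Jun (Entrez Gene 16476, chromosome 4, 95049036 to 95052222, 1 exon) had the clearest difference. It was measured at 245 and 236 CPM in WT and at 172, 175 and 184 CPM in Adam17-/- coculture. Both WT values lay above all 3 Adam17-/- values, and the WT libraries differed from each other by 1.04-fold. The mean was 241 ± 6.75 CPM (SD, n = 2) in WT and 177 ± 6.49 CPM (SD, n = 3) in Adam17-/- coculture, which is 1.36-fold lower, or -0.44 on the log2 scale (standard error 0.0777, 95% interval -0.62 to -0.27, edgeR adjusted p = 0.00332). It stayed past the threshold in all 13 alternatives, between -0.47 and -0.29.

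Jund (Entrez Gene 16478, chromosome 8, 70697739 to 70700616, 1 exon), the subunit known for broad expression in resting cells, was measured at 120 and 95.7 CPM in WT and at 83.0, 79.5 and 87.6 CPM in Adam17-/- coculture. The groups did not overlap, although WT replicate 1 stood 1.25-fold above WT replicate 2, nearly as far as the 1.29-fold difference between the group means. On the log2 scale Jund fell by 0.37 (standard error 0.106, edgeR adjusted p = 0.0259). This call held in 4 of 13 alternatives. It was lost with upper quartile factors (-0.31, adjusted p = 0.0512), with library size only (-0.22, adjusted p = 0.113), without WT replicate 1 (-0.20, adjusted p = 0.0659), and with any of the Adam17-/- replicates left out (-0.34, -0.32 and -0.39 without replicate 1, 2 and 3, adjusted p between 0.0603 and 0.105). The counts were divided 50% to 50% between 2 listed transcripts of the same length, 2894 bases, in every library, so these transcripts were not told apart.

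Junb (Entrez Gene 16477, chromosome 8, 84976909 to 84978748, 1 exon), which can replace Jun in AP-1 dimers and often has a weaker effect, was at 287 and 205 CPM in WT and at 187, 214 and 185 CPM in Adam17-/- coculture. WT replicate 1 was the only library above 214 CPM, and WT replicate 2 lay within the Adam17-/- range. The log2 fold change of -0.33 (standard error 0.134, 95% interval -0.63 to -0.029) had an edgeR adjusted p of 0.0872 and did not pass. It passed in 3 of 13 alternatives, among them DESeq2 (-0.33, adjusted p = 0.0448) and edgeR without the filter on low counts (-0.32, adjusted p = 0.0345). Its size rested on the WT libraries: it was -0.55 without WT replicate 2 and -0.07 without WT replicate 1.

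Among the FOS subunits, Fosl2 (Entrez Gene 14284, chromosome 5, 32136472 to 32157840, 4 exons), which lacks the strong activation domain of Fos, had the highest counts. It was at 527 and 552 CPM in WT and at 445, 440 and 423 CPM in Adam17-/- coculture. All 3 Adam17-/- libraries were below both WT libraries, and the replicates of each group were close together, with means of 540 ± 17.4 CPM (SD, n = 2) and 436 ± 11.4 CPM (SD, n = 3). Fosl2 fell by 0.31 on the log2 scale (standard error 0.0778, edgeR adjusted p = 0.0156). It passed in 6 of 13 alternatives. With library size only it was -0.16 (adjusted p = 0.139), and without Adam17-/- replicate 1, 2 or 3 the adjusted p was 0.0809, 0.0710 and 0.0851, at log2 fold changes of -0.30, -0.30 and -0.27.

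Fos (Entrez Gene 14281, chromosome 12, 85473890 to 85477274, 4 exons), the subunit best known for its early pulse, was measured at 121 and 114 CPM in WT and at 93.6, 135 and 86.5 CPM in Adam17-/- coculture. Adam17-/- replicate 2 was the highest of all 5 libraries, whereas the other 2 Adam17-/- libraries were the lowest. Fos had a log2 fold change of -0.16 (95% interval -0.53 to 0.20, edgeR adjusted p = 0.473). Without Adam17-/- replicate 2 it was -0.36 (adjusted p = 0.0439), so that this library decided the call. Of 11 neutrophil lineage genes, 6 were highest and 3 lowest among the Adam17-/- libraries in this same library, and their sum was 1337 CPM there compared with 1261 and 1160 CPM in replicates 1 and 3. Mpo, the granule enzyme that stood out most and was named after its values were seen, was at 63.2 CPM compared with 14.4 and 18.5 CPM, whereas Ly6g was at 6.51 CPM compared with 7.44 and 8.95 CPM. The part of such cells in the Fos value was not tested.

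Fosb (Entrez Gene 14282, chromosome 7, 19302696 to 19310118, 4 exons) was close to the floor of 3 counts under which levels were not ordered. It was represented by 8 and 6 counts in WT and by 3, 11 and 18 counts in Adam17-/- coculture. These overlapped, and the interval of the log2 fold change of 0.71 ran from -0.77 to 2.20 (edgeR adjusted p = 0.434), so neither direction was shown at this depth. Only 1 Fosb transcript was listed, so the truncated product of this gene was not measured apart.

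Atf3 (Entrez Gene 11910, chromosome 1, 191170296 to 191183333, 4 exons), known as a brake on inflammatory transcription in macrophages, was the 1 member that rose. It was at 37.8 and 31.7 CPM in WT and at 48.1, 50.9 and 45.6 CPM in Adam17-/- coculture. The lowest Adam17-/- library lay above the highest WT library, and the means were 34.7 ± 4.29 CPM (SD, n = 2) and 48.2 ± 2.67 CPM (SD, n = 3), a 1.39-fold difference. Atf3 thus had a log2 fold change of 0.47 (standard error 0.104, 95% interval 0.24 to 0.70, edgeR adjusted p = 0.00908). It passed in all 13 alternatives, between 0.35 and 0.62.

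**Figure D2:**
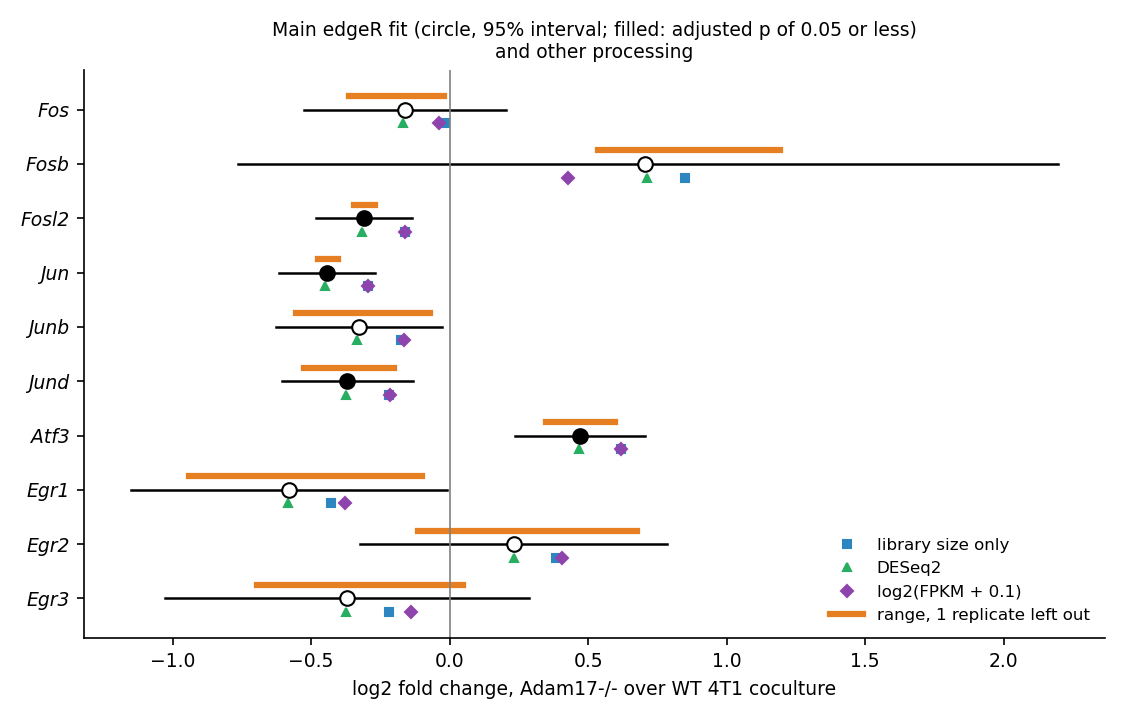
Log2 fold change of each member, Adam17-/- over WT coculture, from edgeR (circle with 95% interval, filled where the adjusted p was 0.05 or less), with 3 other fits below it and the range over fits with 1 replicate left out above it. The intervals and all other settings drawn stayed clear of 0 for Jun, Atf3, Fosl2 and Jund, and also for Junb and Egr1, which did not pass. The 95% intervals of Fos, Fosb, Egr2 and Egr3 crossed 0, and the ranges with 1 replicate left out crossed 0 for Egr2 and Egr3.

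The EGR genes had far fewer reads, and none of the 3 passed the edgeR test over the 12576 filtered genes. Egr1 (Entrez Gene 13653), the most studied EGR factor and a classical target of MAP kinase signaling, was at 9.89 and 5.52 CPM in WT and at 4.21, 4.93 and 6.30 CPM in Adam17-/- coculture. WT replicate 1 was highest, and WT replicate 2 fell among the Adam17-/- libraries. For Egr1 the log2 fold change was -0.58 (standard error 0.255, 95% interval -1.15 to -0.0086, edgeR adjusted p = 0.110). It passed in 3 of 13 alternatives, among them no filter on low counts (-0.57, adjusted p = 0.0466). It was -0.94 without WT replicate 2 and -0.10 without WT replicate 1.

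Egr2 (Entrez Gene 13654, chromosome 10, 67534469 to 67542188, 2 exons), which takes part in macrophage differentiation, was at 12.8 and 7.36 CPM in WT and at 9.36, 15.1 and 11.3 CPM in Adam17-/- coculture. The highest library was Adam17-/- replicate 2 and the lowest WT replicate 2, with the others in between. Egr2 had a log2 fold change of 0.23 (95% interval -0.32 to 0.79, edgeR adjusted p = 0.499), and it was 0.68 without WT replicate 1 and -0.11 without WT replicate 2. The direction for Egr2 thus turned with the WT library that was kept.

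Egr3 (Entrez Gene 13655, chromosome 14, 70077317 to 70082613, 2 exons) had 52 and 30 counts in WT and 35, 26 and 27 counts in Adam17-/- coculture, or 2.72 and 1.62 CPM compared with 1.92, 1.71 and 1.43 CPM. Only WT replicate 1 stood above the rest. The log2 fold change was -0.37 (95% interval -1.03 to 0.29, edgeR adjusted p = 0.356), and 0.05 without WT replicate 1. The deposited estimates placed all counts of WT replicate 1 on the transcript of 3872 bases and all counts of the other 4 libraries on that of 3799 bases. Whether this reflects transcript use or the assignment of reads was not tested.

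WT replicate 1 exceeded WT replicate 2 for 9 of the 10 members, Fosl2 being the exception, compared with 55.0% of all genes tested. The fold between these libraries was 1.79 for Egr1, 1.73 for Egr2, 1.68 for Egr3 and 1.40 for Junb, where the median gene differed by 1.15-fold in either direction. For these 4 members the WT libraries were at least as far apart as the group means. Of 33 other immediate early genes, 28 were also higher in WT replicate 1. What set the WT libraries apart was not tested.

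**Figure D3:**
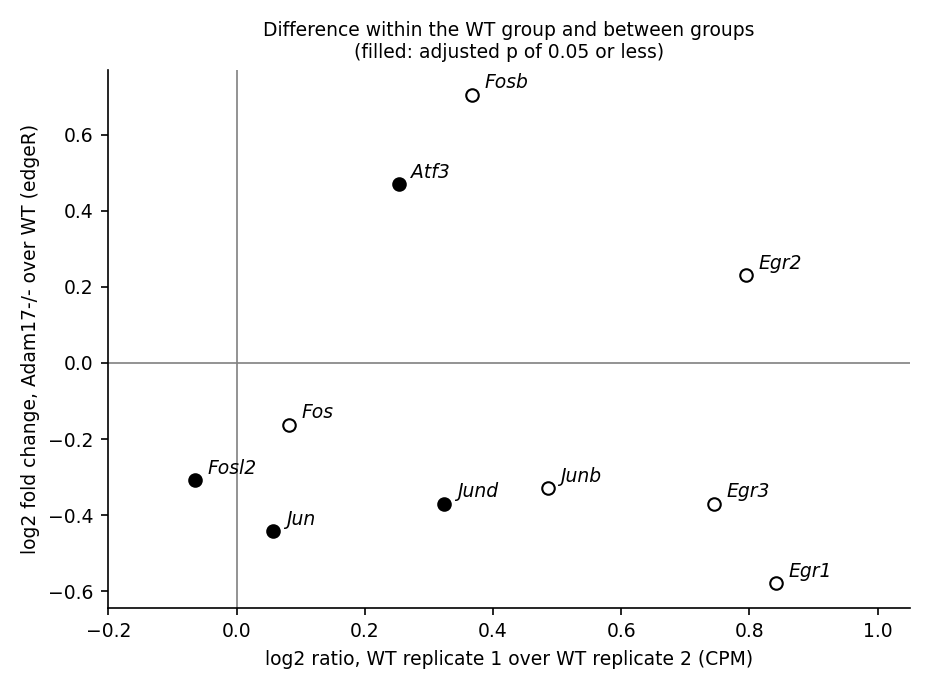
Log2 ratio of CPM between the WT replicates (horizontal axis) against the log2 fold change between groups (vertical axis) for each member, filled where the edgeR adjusted p was 0.05 or less. The called members Jun, Fosl2, Jund and Atf3 lie at WT ratios of 1.25-fold or less, and Junb and the EGR genes at 1.40-fold or more. Fos at 1.06-fold and Fosb at 1.29-fold were not called either, so a small WT ratio did not by itself go with a call.

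Levels of different genes were compared per length, as FPKM summed over a gene's transcripts. In WT coculture, Junb was highest at 130 ± 26.5 FPKM (SD, n = 2), followed by Fosl2 at 87.2 ± 5.61, Jun at 72.4 ± 0.297, Fos at 54.0 ± 0.431, Jund at 35.7 ± 4.51 and Atf3 at 17.0 ± 1.56 FPKM. Egr2 at 3.24 ± 1.14 and Egr1 at 2.40 ± 0.884 FPKM came next and overlapped each other, and Egr3 at 0.540 ± 0.170 and Fosb at 0.0900 ± 0.0141 FPKM were lowest. The order of the means was the same in Adam17-/- coculture, from Junb at 115 ± 9.30 FPKM (SD, n = 3) to Fosb at 0.173 ± 0.112 FPKM. There, Jun at 59.0 ± 1.89 and Fos at 53.5 ± 13.2 FPKM overlapped, and Atf3 at 26.2 ± 1.47 FPKM stood closer to Jund at 30.7 ± 1.46 FPKM.

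The summed FPKM of the JUN genes was 260 and 216 in WT and 199, 213 and 202 in Adam17-/- coculture, without overlap (exact permutation p = 0.1, two-sided, the smallest that 2 against 3 libraries allow). The FOS sum was 138 and 145 in WT and 128, 147 and 119 in Adam17-/- coculture (exact permutation p = 0.5), and the EGR sum was 7.72 and 4.62 compared with 5.39, 7.56 and 6.59 (exact permutation p = 0.8). Within the JUN sum, Junb held 57.2% and 51.4% in WT and 55.6%, 59.0% and 53.7% in Adam17-/- coculture, so the groups overlapped. Within the FOS sum, Fosl2 held 60.5% and 62.9% in WT and 62.4%, 53.3% and 63.0% in Adam17-/- coculture, the low value coming from replicate 2, where Fos was high.

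Within the EGR sum, the shares of Egr2 and Egr1 did not overlap between groups, and that of Egr3 did. Shares are parts of the same sum, so a higher Egr2 share and a lower Egr1 share are not separate results. The p-values were not adjusted for the number of shares compared. Egr2 held 52.3% and 52.6% of the EGR sum in WT and 62.7%, 71.2% and 61.0% in Adam17-/- coculture. The difference was 12.5 percentage points (exact permutation p = 0.1, two-sided, the smallest that 2 against 3 libraries allow). The share of Egr1 was 39.1% and 38.3% in WT and 27.3%, 22.5% and 32.9% in Adam17-/- coculture (exact permutation p = 0.2), and the share of Egr3 was 8.55% and 9.09% in WT and 10.02%, 6.35% and 6.07% in Adam17-/- coculture (exact permutation p = 0.4). The WT libraries, which differed in the level of both genes, had nearly the same ratio of Egr2 to Egr1, 1.34 and 1.37, compared with 2.30, 3.16 and 1.85 in Adam17-/- coculture (exact permutation p = 0.2). With 1 library left out in turn, the difference in the Egr2 share stayed between 9.39 and 14.5 percentage points. Neither gene passed the test alone, and these shares rest on 75 to 244 counts per gene and library.

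**Figure D4:**
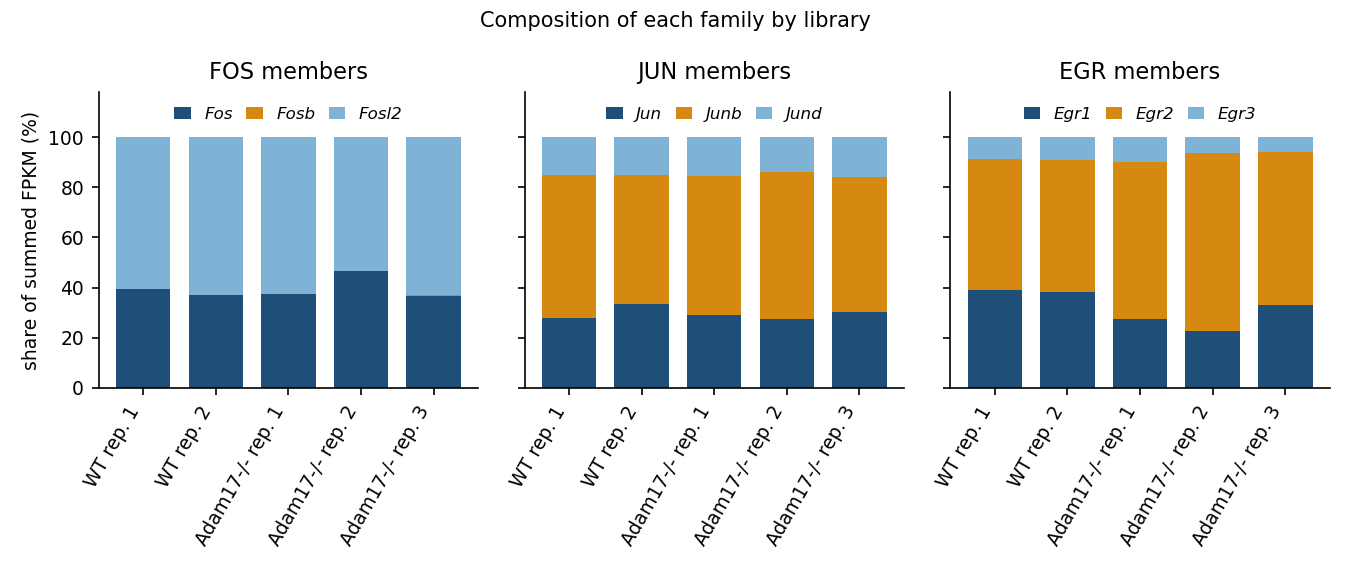
Share of the summed FPKM (%) held by each FOS, JUN and EGR gene in each library, as stacked bars. The Egr2 part was 52.3% and 52.6% in WT and 61.0% to 71.2% in Adam17-/- coculture, whereas the FOS and JUN make-up overlapped between groups.

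Among 11 tested dimer partners and related bZIP genes, 4 fell, 0 rose and 7 did not pass (median log2 fold change -0.15). The genes that fell were 36.4% of those tested, where 16.8% of all genes fell and 14.9% rose. Among those that fell were Jdp2, a repressor that pairs with JUN proteins (-0.68, edgeR adjusted p = 0.00348), the bZIP gene Maf (-0.58, adjusted p = 0.00351) and the small MAF gene Maff (-0.52, adjusted p = 0.0182). The FOS gene Fosl1 was at 4.03 and 5.68 CPM in WT and at 4.00, 1.58 and 3.81 CPM in Adam17-/- coculture and did not pass (adjusted p = 0.178).

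Of 8 tested genes for SRF, its cofactors and the NAB corepressors, 3 fell, 0 rose and 5 did not pass (median log2 fold change -0.29). The share that fell was 37.5%, beside 16.8% of all genes. Srf, whose product binds the CArG box, was at 82.7 and 64.8 CPM in WT and at 48.2, 49.0 and 52.7 CPM in Adam17-/- coculture, a log2 fold change of -0.56 (edgeR adjusted p = 0.00557). Its partners Elk3 (-0.63, adjusted p = 0.00121) and Elk1 (-0.43, adjusted p = 0.00930) also fell. The Adam17-/- libraries all lay below both WT libraries for these 3 genes, which were named because they were called. The same held for Elk4, Mrtfa and Mrtfb, which did not pass, but not for Nab1 and Nab2. Over all genes it held for 29.7%.

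In the list of EGFR, RAS and MAP kinase genes, 6 of 21 tested fell, 2 rose and 13 did not pass (median log2 fold change -0.10). This balance turned with the scaling, to 3 lower and 5 higher with library size only and to 3 lower and 6 higher in both FPKM fits. With TMM factors the shares were 28.6% lower and 9.52% higher, beside 16.8% and 14.9% of all genes. Egfr, the receptor for the ligands that ADAM17 sheds, was low, at 6.49 and 5.90 CPM in WT and at 3.12, 2.83 and 2.86 CPM in Adam17-/- coculture, a log2 fold change of -1.07 (edgeR adjusted p = 0.00185). Hras fell (-0.44, adjusted p = 0.0198), and the RAF kinase genes Araf (0.45, adjusted p = 0.00505) and Braf (0.55, adjusted p = 0.00342) rose. Transcript levels do not measure the activity of these kinases.

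Other immediate early genes moved in both directions: 9 of 33 fell, 7 rose and 17 did not pass (median log2 fold change -0.06), and with library size only 6 fell and 10 rose. With TMM factors 27.3% fell and 21.2% rose, beside 16.8% and 14.9% of all genes. The transcription factor gene Myc was at 67.6 and 51.5 CPM in WT and at 15.7, 14.7 and 23.3 CPM in Adam17-/- coculture, a log2 fold change of -1.73 (edgeR adjusted p = 0.000477). The related nuclear receptor genes Nr4a1 (-1.04, adjusted p = 0.00833) and Nr4a3 (1.5, adjusted p = 0.00269) went opposite ways. Npas4, known from active neurons, rose from 2.93 and 1.79 CPM to 6.62, 10.5 and 10.4 CPM (1.95, adjusted p = 0.00127). Each of these differences was larger than that of any called member.

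Of 16 tested genes with AP-1 sites known from textbooks, 9 fell, 1 rose and 6 did not pass (median log2 fold change -0.36). That is 56.2% lower and 6.25% higher, beside 16.8% and 14.9% of all genes, in a list chosen with earlier results of these data known. The monocyte chemokine Ccl2 was at 193 and 133 CPM in WT and at 19.8, 35.5 and 36.2 CPM in Adam17-/- coculture, a log2 fold change of -2.42 (edgeR adjusted p = 0.000352). The cell cycle gene Ccnd1 (-2.36, adjusted p = 0.000199), the cytokine Tnf (-1.37, adjusted p = 0.000559) and the urokinase receptor gene Plaur (-0.99, adjusted p = 0.000684) also fell. Vegfa rose (0.50, adjusted p = 0.00741). These genes have many other inputs, and AP-1 binding to them was not measured.

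**Figure D5:**
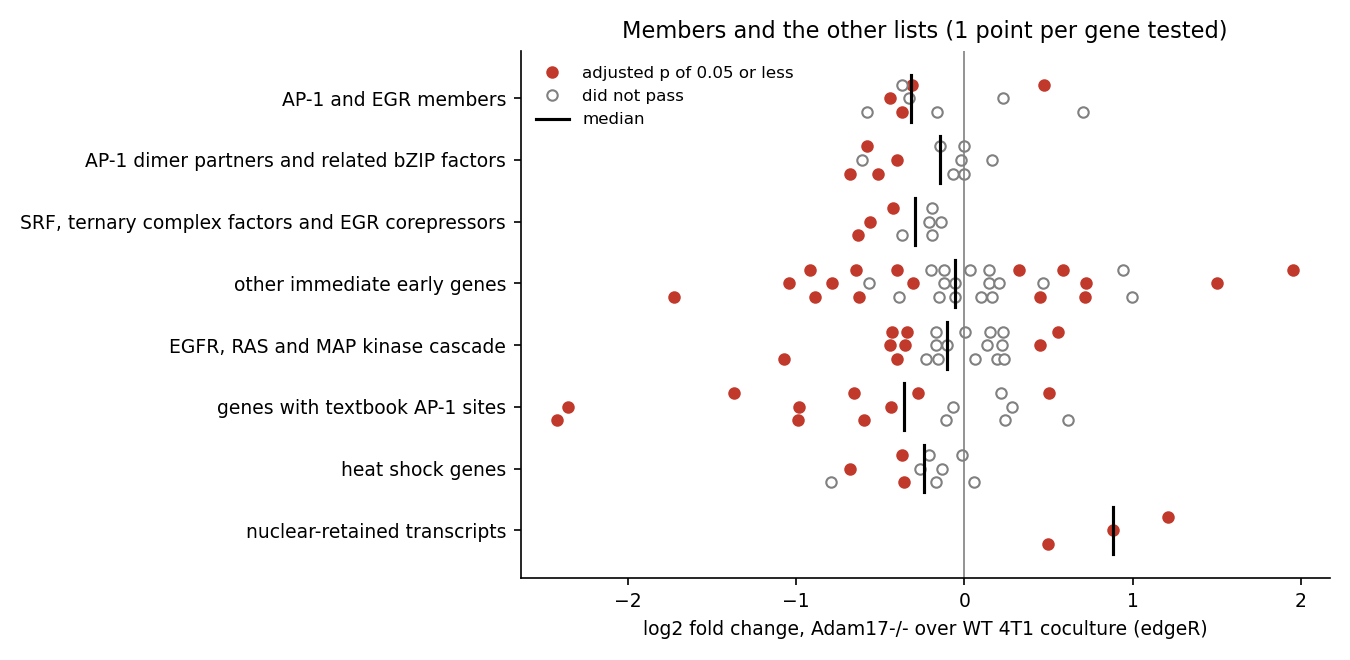
Log2 fold change (Adam17-/- over WT coculture, edgeR) of every tested gene of the members and of 7 other lists, 1 point per gene, red where the adjusted p was 0.05 or less, with a line at each list's median. The called members lie within 0.47 of 0 on the log2 scale, whereas Ccl2, Ccnd1, Myc and Npas4 lie beyond 1.5.

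Markers of other cells and lists that bear on RNA handling are given beside these results, to be read against the 16.8% of all genes that fell and the 14.9% that rose with TMM factors, or 8.56% and 24.0% with library size only. Of 8 macrophage markers, 6 fell (75.0%) and 0 rose, with log2 fold changes of -0.66 for Adgre1 and -0.93 for Cd68, while Csf1r at -0.29 did not pass (edgeR adjusted p = 0.0520), and with a summed level of 27659 to 28416 CPM in WT and 17945 to 19906 CPM in Adam17-/- coculture. Of 11 neutrophil lineage genes, 9 rose, S100a8, S100a9 and Ly6g by 1.78, 1.73 and 1.83 on the log2 scale, and their sum went from 334 to 407 CPM to 1160 to 1337 CPM. Of 10 epithelial genes of the cancer cells, 7 were at or under 3 counts in every library, Epcam included, and the sum was 11.5 to 13.3 CPM in WT and 12.0 to 14.3 CPM in Adam17-/- coculture, nearly all of it Cdh1, with Krt7 at 0.0658 to 0.680 CPM. Dendritic cell (2 of 5), fibroblast (2 of 5) and lymphocyte genes (0 of 1) summed to at most 26.9, 121 and 1.97 CPM in any library, and the calls were all in the higher direction. Heat shock genes, which handling can induce, fell for 3 of 10 (Hspa8, Hspd1 and Bag3), or 1 of 10 with library size only, close to the share of all genes, and rose for 0, and all 3 nuclear-retained transcripts rose, Malat1 by 1.21 on the log2 scale. The part of these shifts in the differences of Jun, Jund, Fosl2 and Atf3 was not tested. In bulk RNA, fewer cells of a type and less RNA per cell cannot be told apart.

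The libraries held 14658694 to 20788373 expected counts, and a count of 3 corresponded to 0.157 to 0.197 CPM. Adam17 itself was expressed by the macrophages of all 5 libraries, at 198 and 200 CPM in WT and 152, 164 and 161 CPM in Adam17-/- coculture (log2 fold change -0.32, edgeR adjusted p = 0.0129), which does not check the deletion, since the cancer cells were not sequenced. Counts between any pair of libraries differed by more than sampling noise, with a chi-square per degree of freedom of 25.7 between the WT libraries, 5.22 to 6.32 among the Adam17-/- libraries and 44.5 to 84.4 between groups.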

How the data were processed

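The authors prepared poly-A libraries, sequenced them on a BGISEQ-500, aligned reads to GRCm38 with HISAT and quantified transcripts, and the submitters' processing notes name Bowtie2, RSEM, Bowtie and DESeq2. Tool versions are not given in the sources used here. The authors deposited, for each library, a transcript table with an unnormalized expected count and an FPKM, the latter scaled to length and library size. Whether counting used strand is not stated.

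Gene sums of the expected counts were rounded, and 12576 genes were tested in R 4.3.3 by edgeR 4.0.16 (TMM, filterByExpr, glmQLFit, glmQLFTest, no covariates). The values of all 10 members were whole numbers after summing. FPKM was summed per gene, and family shares were compared by exact permutation. Symbols and promoter windows came from RefSeq (GRCm38.p6): 17015 of 17058 gene IDs had a symbol. The alternatives were library size only, upper quartile factors, DESeq2 1.42.0, limma 3.58.1 on FPKM (log2, pseudocount 0.1 or 1), each replicate left out, a replicate block, at least 10 counts in every sample or no filter at all, and other thresholds. The 13 alternatives cited per gene leave out the thresholds. List counts under alternatives and family shares with a replicate left out were added after seeing the data.

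The members and the 13 lists were chosen with earlier results of these data known. All members are named with every value. From each pathway list, up to 4 called genes with the largest absolute log2 fold change and a mean of at least 1 CPM are named, together with the first 3 macrophage, neutrophil and epithelial markers, and Fosl1 and Vegfa were added after their values were seen. A result that this rule would name is not reported here. On simulated counts for 12576 genes in this comparison, edgeR called 188 of 200 changed genes and 17 unchanged ones, and DESeq2 184 and 14. How often a difference as small as those of the called members would be found was not tested. Python 3.11.15, pandas 2.3.3, SciPy 1.17.1 and matplotlib 3.10.9 were used.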

Additional observations from a re-analysis of the deposited data

How the results depend on the processing

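Jun and Atf3 passed in all 13 alternatives. The number of members called lower, 3, was 1 with library size only, with log2(FPKM + 0.1), with log2(FPKM + 1) and at a threshold of 0.01 on the adjusted p, 4 with DESeq2 (Junb added), 5 without a filter on low counts, 0 when a log2 fold change of 1 or more was also asked, and 1 to 5 with 1 replicate left out. The 5 without WT replicate 2 were Jun, Jund, Fosl2, Junb and Egr1, and the 1 without Adam17-/- replicate 1 or 3 was Jun. The number called higher, 1, was 0 with that limit on the fold change and 1 to 2 with 1 replicate left out, the other being Egr2 without WT replicate 1. With 1 replicate left out, the log2 fold change of Egr2 ran from -0.11 to 0.68, that of Egr3 from -0.69 to 0.0471, and the differences in family share (Adam17-/- minus WT, percentage points) turned sign for Jun (-1.83 with all libraries, range -4.72 to 1.06), Junb (1.83, -1.09 to 4.74), Jund (0.0082, -0.44 to 0.67), Fos (2.05, -1.10 to 3.82) and Fosl2 (-2.12, -3.85 to 1.03). Over all genes, 2114 were lower and 1869 higher. These counts were 1077 and 3019 with library size only, 1016 and 2927 with log2(FPKM + 0.1), 1011 and 2867 with log2(FPKM + 1), 1027 and 815 at the threshold of 0.01, 109 and 422 with the limit on the fold change, and 926 to 2940 lower and 1089 to 2460 higher with 1 replicate left out. Where 1 WT library was left, it was assumed to vary like the other group. The WT libraries differed from each other more than the Adam17-/- libraries did (chi-square per degree of freedom 25.7 compared with 5.22 to 6.32). A call from such a fit may therefore pass too easily. The cause of these changes was not tested, except that the FPKM and library size fits move the median of all genes.

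No pairing by replicate number was seen: the correlation of deviations was -0.124 for number 1 and -0.0500 for number 2. With 2 WT libraries their deviations mirror each other, so this check rests on 1 WT difference and cannot exclude pairing. The numbers mark nothing shared in the labels. With the replicate number as a block, which leaves out Adam17-/- replicate 3, 1155 genes were lower and 1425 higher in the whole table, Jun was -0.45 (edgeR adjusted p = 0.0236), Atf3 0.53 (adjusted p = 0.0136), Fosl2 -0.27 (adjusted p = 0.193), Jund -0.38 (adjusted p = 0.0678) and Egr1 -0.70 (adjusted p = 0.0387). Across the 13 alternatives that keep the threshold, the genes called lower ranged from 8 to 9 for AP-1 sites, 3 to 4 for dimer partners, 2 to 6 for SRF and cofactors, 2 to 8 for MAP kinase genes and 6 to 13 for other immediate early genes, and those called higher were 1 to 3, 0 to 1, 0, 2 to 6 and 6 to 10, in the same order of lists. With the limit on the fold change, 3, 0, 0, 1 and 2 genes of these lists were lower and 0, 0, 0, 0 and 2 higher. The fewest counts lay behind Fosb, with 3 to 18 per library, and Egr3, with 26 to 52.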
